A study of Mus musculus with 4 samples.

Results

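TOP2B cleavage complexes inside short protein-coding genes were described in cultured mouse cortical neurons. A member is a peak summit on an autosome that lies in a protein-coding gene of 3 to 10 kb, more than 1 kb from both of its ends, and in no protein-coding gene over 10 kb. Of 35315 autosomal summits, 496 (1.4%) met this rule. They lay in 452 genes, of 4324 autosomal protein-coding genes of that length. The neurons were wild-type, came from embryonic day 16 Swiss-Webster mice and received 50 µM etoposide for 30 min, without an untreated or TOP2B-deficient group. The labels give 2 libraries of native TOP2B immunoprecipitation (ChIP) and 2 of input DNA, all from etoposide-treated cells, and do not say whether these came from separate cultures. The values come from 1 peak list that the authors pooled over libraries, so no value has a standard deviation or an n. The list holds DNA positions and no expression, so the labelled cell type could not be checked against its markers.

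Type II topoisomerases pass one DNA duplex through a break in another and thereby relieve the twisting and tangling that transcription and folding put into chromatin. TOP2B is the form kept by neurons, which no longer divide, and it is covalently bound to the DNA ends while the break is open. Etoposide blocks resealing, so that the bound enzyme can be recovered together with the site it cut. Earlier work on topoisomerases in neurons is best known for very long genes, and short genes are the other end of that range.

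There were 4 members whose summit lay inside a listed RefSeq promoter window of GRCm38.p6, which covers 250 bases before and 50 after a transcript's start. These 4 are shown because they are the members whose sequence can be read from a listed window. Each lies on the minus strand, is written 5′ to 3′, and has in capitals the 21 bases centred on the summit.
Sh2b1, chr7:126473045-126473344: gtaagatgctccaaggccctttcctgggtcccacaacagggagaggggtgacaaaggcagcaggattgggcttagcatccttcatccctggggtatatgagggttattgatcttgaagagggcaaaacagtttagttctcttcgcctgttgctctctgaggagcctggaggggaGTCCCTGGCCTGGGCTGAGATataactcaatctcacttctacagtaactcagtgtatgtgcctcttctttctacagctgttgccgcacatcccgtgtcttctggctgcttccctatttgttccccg
Gm15510, inside Ccdc106, chr7:5057067-5057366: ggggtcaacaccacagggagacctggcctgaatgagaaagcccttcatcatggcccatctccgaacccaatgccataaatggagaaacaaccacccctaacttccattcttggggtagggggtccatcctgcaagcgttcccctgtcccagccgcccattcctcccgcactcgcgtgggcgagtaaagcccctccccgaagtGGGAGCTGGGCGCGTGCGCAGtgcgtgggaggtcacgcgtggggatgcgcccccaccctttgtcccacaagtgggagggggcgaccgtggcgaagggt
Olfr1342, chr4:118690401-118690700: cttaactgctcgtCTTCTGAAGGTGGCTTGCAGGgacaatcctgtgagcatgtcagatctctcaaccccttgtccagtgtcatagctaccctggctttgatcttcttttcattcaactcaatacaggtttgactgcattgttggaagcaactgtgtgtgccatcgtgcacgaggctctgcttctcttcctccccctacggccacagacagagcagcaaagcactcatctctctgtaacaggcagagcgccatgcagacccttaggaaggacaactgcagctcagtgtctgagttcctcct
Cd300c2, chr11:115001831-115002130: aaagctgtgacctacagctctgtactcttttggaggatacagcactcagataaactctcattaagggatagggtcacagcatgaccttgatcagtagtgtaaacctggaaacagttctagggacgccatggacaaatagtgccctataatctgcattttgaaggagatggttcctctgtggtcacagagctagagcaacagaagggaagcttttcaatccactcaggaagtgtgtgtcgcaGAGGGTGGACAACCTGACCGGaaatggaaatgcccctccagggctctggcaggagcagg

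These are starts of transcripts that begin inside the span of the short gene, since every member is more than 1 kb from the span's ends. In Sh2b1, which encodes an adaptor protein of receptor tyrosine kinase signalling, the summit at 126473160 lay 66 bp before the start, with a fold of 3.11 and a q of 0.039. The Gm15510 window lies in Ccdc106, and its summit at 5057154, 38 bp before the start, belonged to a wide peak of 598 bp with a fold of 3.08 and a q of 0.0318. The peak in Olfr1342, an odorant receptor gene, was 569 bp wide, with its summit 227 bp before the start, a fold of 2.94 and a q of 0.0675. In Cd300c2, an immune receptor gene, the summit lay 1 bp after the start, with a fold of 2.77 and a q of 0.11. The Gm15510 window held 63.3% G and C and 18 CpG dinucleotides, against medians of 52.7% and 7 over the 32851 listed windows. The other 3 windows held 49% to 52% G and C and 3 to 5 CpG. Only 1 of the 4 was thus rich in CpG.

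The letters of 5 motifs were searched on both strands. The CCAAT box (CCAAT) matched once in the Sh2b1 window and once in the Gm15510 window, and 37.4% of all listed windows held it. The GC box (GGGCGG) matched once in the Gm15510 window, against 35.7% of all windows. The AP-1 letters TGANTCA (7.81% of all windows), the CRE letters TGACGTCA (1.79%) and the TATA box letters TATAAA (13.6%) were not found in these 4 windows. No motif searched contains another. A promoter sequence was listed for 355 of the 452 genes (78.5%) and for 3426 of the 4324 short genes (79.2%). Both are below the 80% set for a comparison of strand or base composition over these genes, so that comparison was void and none was made.

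Fold enrichment is the authors' value, taken here as ChIP pileup over control at the summit with the same small constant added to both. The q-value of each peak is theirs as well. Fragment counts and control levels were recovered from fold and p on that reading and are not values the authors gave. Among the members, the highest fold was 4.15, at Gsk3a and at Chtf18. Gsk3a encodes glycogen synthase kinase 3 alpha, and its summit lay at 25233340 on chromosome 7 with 23 ChIP fragments, a control level of 4.78 and a q of 0.00013. Chtf18, a subunit of a clamp loader that acts in sister chromatid cohesion, had the same 23 fragments and the same q at 25723654 on chromosome 17. Both summits lay near the middle of their genes, 4511 and 3780 bp from the nearest end.

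Rpl19, a protein of the large ribosomal subunit, and Snx21, a sorting nexin, followed with a fold of 3.98, from 22 fragments (q 0.000497). The Snx21 summit also lay 429 bp from an end of another protein-coding gene. A fold of 3.8 from 21 fragments (q 0.00162) was found in Cyth2, which encodes an exchange factor for ARF GTPases, in Grwd1, a histone-binding protein gene, in Glyctk, which encodes glycerate kinase, and in the zinc finger gene Zfp319. Dipk1b, H2-Q6, the zinc finger gene Rbak and Tspo2 were tied at 3.63 (20 fragments, q 0.00437). H2-Q6 belongs to the class I histocompatibility genes, whose near-identical copies make the placing of short reads uncertain. Cyth2 and Grwd1 lie close together on chromosome 7, with summits at 45809095 and 45827336. Most of these 12 genes have unrelated roles.

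The members as a whole were as high as other peaks. Their median fold was 2.77 (quartiles 2.54 and 2.94), from a median of 15 fragments (quartiles 14 and 17), and over all autosomal peaks the median was also 2.77 (quartiles 2.49 and 2.94). A q of 0.05 or less was reached by 121 of 496 members, or 24.4% (95% Wilson interval 20.8 to 28.4), against 23.5% of all autosomal peaks. A fold of 3 or more was reached by 117 (23.6%), against 22.4%. Both shares are near the background, and most members, like most entries of the list, are weak peaks. The control level of 4.78, the most common in the list, applied to 373 members (75.2%) and to 71.1% of all autosomal peaks, and no member had more than 2 times that level. Among peaks that share this level, fold depends on the pileup alone and not on a control that varies from site to site. The peaks of members were 234.5 bp wide at the median (quartiles 201 and 288), against 222 bp (193 and 269). The smallest width that occurs in the list was found in 16.9% of members and 22.3% of all autosomal peaks. No test was made of these, as peaks of a pooled list are not replicates.

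**Figure D1:**
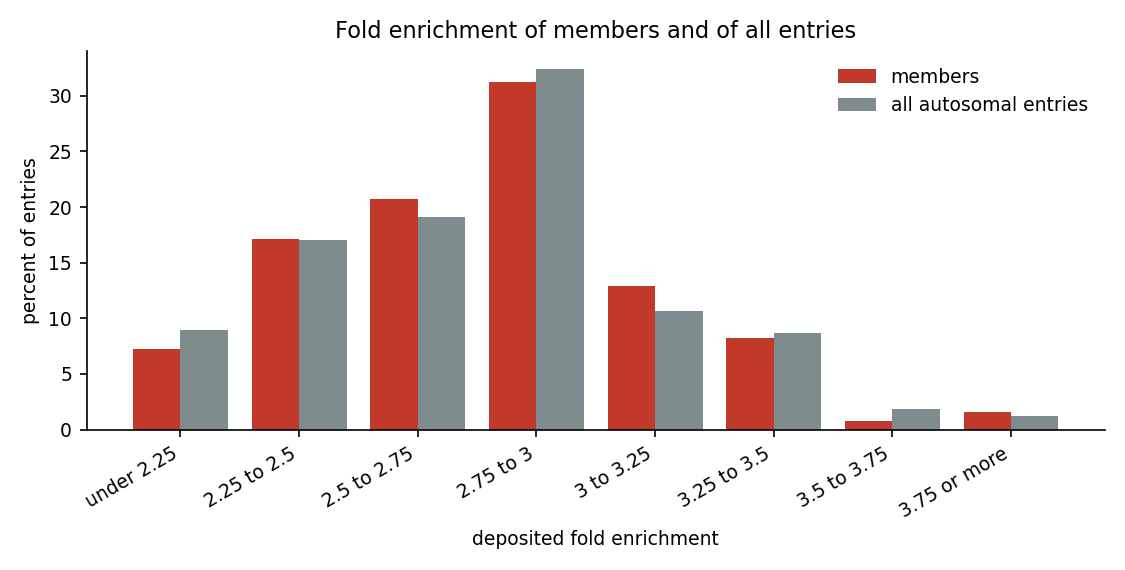
Percent of peaks (y axis) per step of the deposited fold enrichment (x axis), for the 496 members and for all 35315 autosomal entries. Both peak at a fold of 2.75 to 3, with 31.3% of members and 32.4% of all entries there, and both fall off alike on either side.

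The number of summits per length of sequence, which the rule does not fix, was higher in short genes than in longer ones. Short gene bodies, taken from 1 kb inside both ends and outside longer genes, held 29.4 summits per Mb (95% Poisson interval 26.9 to 32.1, over 16.9 Mb). Bodies of genes of 10 to 30 kb held 23.0 per Mb, those of 30 to 100 kb 19.2, and those over 100 kb 15.3. Short bodies thus held 1.28 times (95% interval 1.15 to 1.41) the density of genes of 10 to 30 kb, with an adjusted p of 1.91e-06. They held 1.53 times (1.39 to 1.68) that of genes of 30 to 100 kb, with an adjusted p of 1.93e-17, and 1.92 times (1.75 to 2.11) that of genes over 100 kb, with an adjusted p of 1.22e-37. All comparisons of density used an exact conditional test of 2 Poisson rates, two-sided, with Benjamini-Hochberg adjustment over 7 reference classes. Intervals and tests cover counting error in this list only, and neither variation between cultures nor the lack of independence of nearby peaks.

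A short gene lies wholly within 5 kb of an end, so sequence within 5 kb of an end inside longer genes was compared as well. The stretch from 1 to 5 kb inside the ends of genes over 10 kb held 23.1 summits per Mb. Short bodies had 1.27 times that density (1.15 to 1.4, adjusted p 1.91e-06 by the exact conditional test). Short genes have less of their body far from an end, so these distances were not matched. Compared within steps of 500 bp from the end and combined by the Mantel-Haenszel rate ratio, a comparison added after the densities were known, the ratio was 1.22 (1.10 to 1.34, p 9.13e-05). The steps were not alike, with 28.1 against 26.5 per Mb at 1 to 1.5 kb, 36.7 against 23.6 at 3 to 3.5 kb and 20.4 against 21.2 at 4 to 4.5 kb.

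Just outside the same short genes the density was lower. Sequence 1 to 5 kb beyond their ends and outside any protein-coding gene held 357 summits in 22.2 Mb, or 16.1 per Mb (14.5 to 17.9). Short bodies had 1.83 times that density (1.59 to 2.10, adjusted p 5.48e-18 by the exact conditional test). The windows of 1 kb around the ends of these genes held 28.3 per Mb (25.7 to 31.2). Bodies and those windows had a ratio of 1.04 (0.909 to 1.19; exact conditional test, adjusted p 0.596), and a difference of that size could not be resolved here. The windows join unlike sides of the ends. Their steps of 500 bp held 32.3 and 37.0 per Mb inside the genes and 20.5 and 21.2 outside them. All other autosomal sequence held 14.6 per Mb, and short bodies had 2.01 times that density (1.83 to 2.19, adjusted p 9.95e-43).

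**Figure D2:**
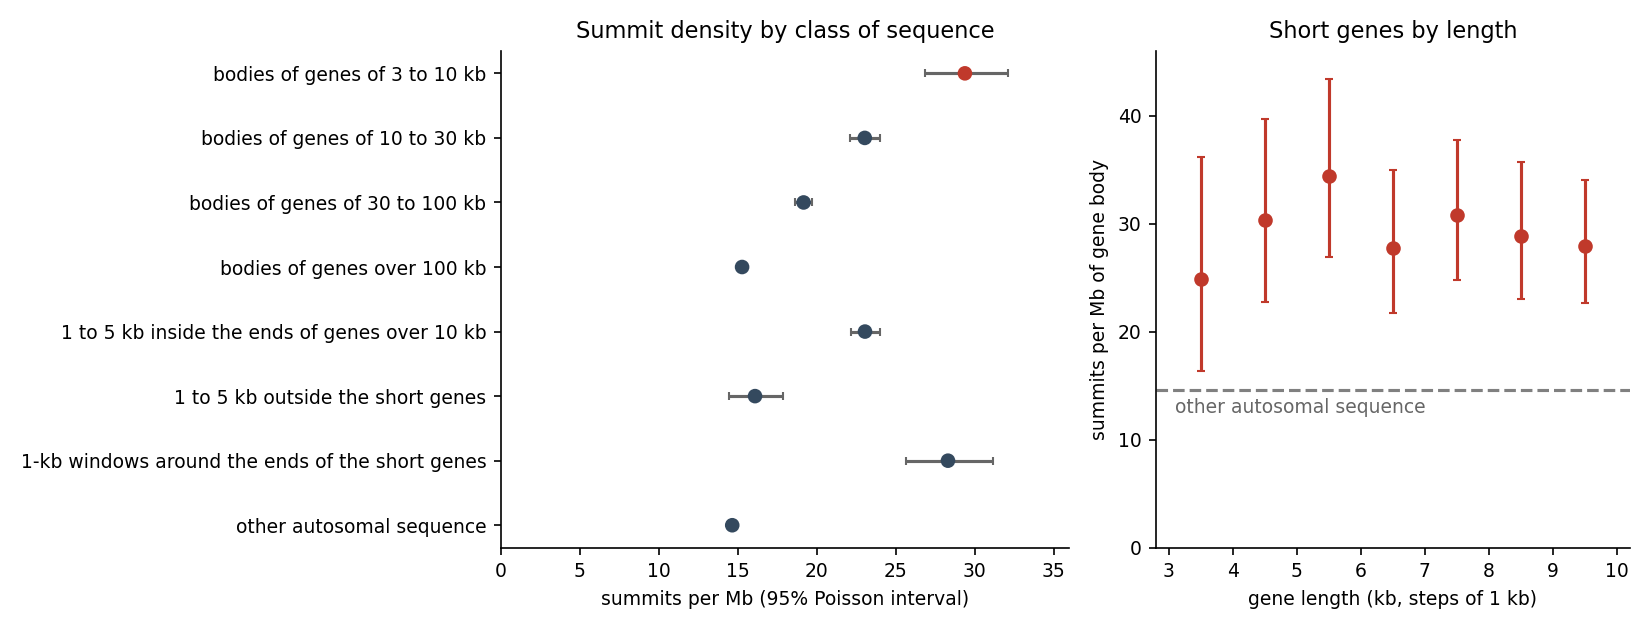
Left, summits per Mb (x axis) in each class of autosomal sequence; right, summits per Mb of body (y axis) for short genes by length in steps of 1 kb (x axis), with the density of other autosomal sequence as a dashed line. Points are counts over length and bars are 95% Poisson intervals; the short genes stand at 29.4 per Mb, next to their own end windows at 28.3, and all 7 length steps lie above the dashed line.

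Within the range of 3 to 10 kb, density did not follow gene length. It was lowest, at 24.8 per Mb (16.4 to 36.1), in genes of 3 to 4 kb and highest, at 34.4 (26.9 to 43.4), in genes of 5 to 6 kb. Genes of 9 to 10 kb had 27.9 (22.7 to 34.0). The intervals of all 7 steps overlapped. Genes that held a member were longer than short genes at large, with medians of 7.29 kb and 5.95 kb, and longer bodies offer more sequence in which a summit can fall. At the upper limit of the rule, the 258 genes of 9.5 to 10 kb held 57 summits in their bodies, with a median fold of 2.59. The 268 genes just over 10 kb and up to 10.5 kb held 47, with a median fold of 2.77, and both counts include sequence inside longer genes. At the 1-kb margin, 17 members lay 1000 to 1100 bp from an end and 21 other summits lay 900 to 1000 bp from one, both with a median fold of 2.77.

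Density was higher just inside the ends than just outside them. From 1.5 to 1 kb outside the short genes the density was 17.6 per Mb, and in the last 500 bp outside it was 20.5 (16 to 25.9). In the first 500 bp inside it was 32.3 (27.0 to 38.4), and from 500 to 1000 bp inside it was 37.0 (31.3 to 43.4). From 1 to 4 kb inside, the values ran between 28.1 and 36.7 per Mb. Farther in they were lower, 20.4 (11.2 to 34.3, from 14 summits) at 4 to 4.5 kb and 20.9 (6.77 to 48.7, from 5 summits) at 4.5 to 5 kb. Genes over 10 kb had 28.5 in the first 500 bp inside and 18.8 (16.6 to 21.3) at 4.5 to 5 kb. Members were spread over the body, with 19.6%, 17.9%, 21.6%, 21.6% and 19.4% of them in the 5 equal steps from the margin to the centre. Neither strand nor exons are given for all genes, so starts and 3′ ends were not told apart, and exons and introns were not distinguished.

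**Figure D3:**
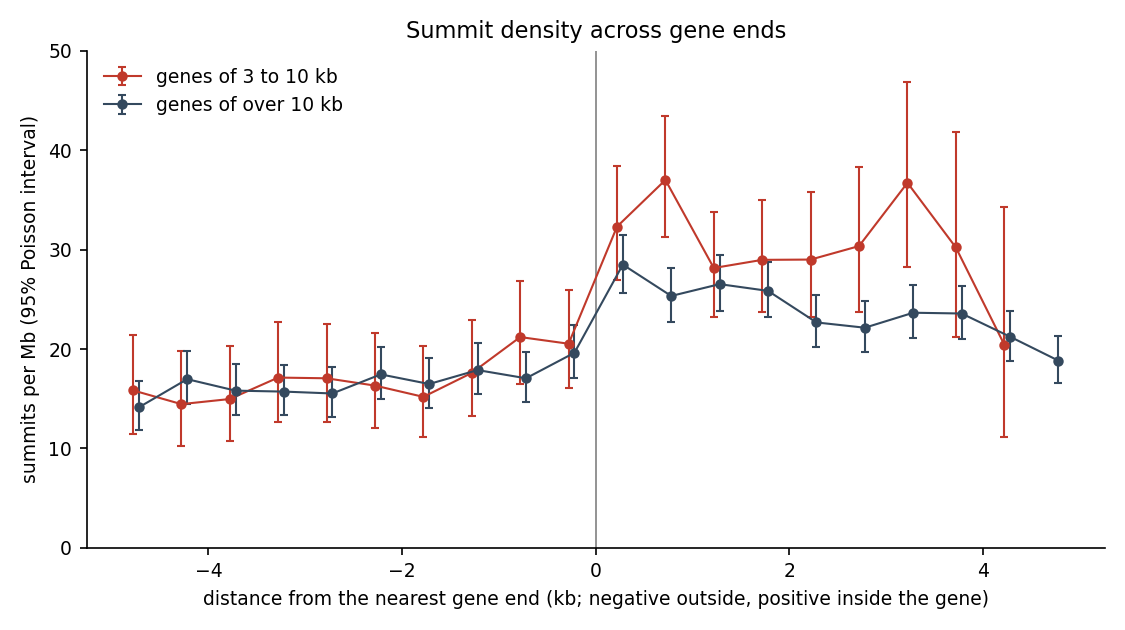
Summits per Mb (y axis, 95% Poisson intervals) in steps of 500 bp from the nearest gene end (x axis, negative outside any protein-coding gene, positive inside), for genes of 3 to 10 kb and genes over 10 kb. Outside the gene both lie near 14 to 21 per Mb; inside, the short genes lie at 28 to 37 per Mb up to 4 kb and at 20.4 per Mb, next to 21.2 for genes over 10 kb, at 4 to 4.5 kb, and their step beyond 4.5 kb, with 5 summits, is not drawn.

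The surroundings of members were rich in genes. A median of 16 protein-coding genes (quartiles 10 and 24) had their midpoint within 250 kb on either side of a member, against 3 (1 and 8) for all autosomal summits and 12 for summits in genes of 10 to 30 kb. Every member lies in a protein-coding gene that is itself counted, so the contrast with all autosomal summits is partly set by the rule. For summits in the 1-kb windows around the ends of the short genes the median was 14 (8 and 21). Short genes without a member were not counted in this way. Autosomes were divided into 1-Mb bins by their number of protein-coding genes, grouped so after the densities were known. In bins with 5 genes or fewer, short bodies held 15.1 summits per Mb (8.62 to 24.5, from 16 summits). The density was 19.2 (14.4 to 25.1) with up to 11 genes, 26.4 (21.7 to 31.7) with up to 20, and 35.8 (32.0 to 40.0, from 313 summits) with more than 20.

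The densest bins thus had 2.38 times the short-body density of the sparsest (1.44 to 4.21, adjusted p 0.000236 by the exact conditional test over 8 classes). Bodies of 10 to 30 kb rose from 15.4 to 29.1 per Mb over the same bins, 1.89 times (1.58 to 2.29). Combined over the 4 groups of bins by the Mantel-Haenszel rate ratio, short bodies had 1.195 times (1.08 to 1.32) the density of genes of 10 to 30 kb and 1.77 times (1.54 to 2.03) that of their flanks. In the sparsest bins the ratio to genes of 10 to 30 kb was 0.982 (0.545 to 1.66), with up to 11 genes 1.14 (0.838 to 1.52) and with up to 20 genes 1.17 (0.948 to 1.42). In the densest it was 1.23 (1.08 to 1.4), the only interval wholly above equality. The ratios to genes of 10 to 30 kb did not differ past the threshold between groups of bins (chi-square test of heterogeneity of the log ratios, adjusted p 0.813 over the 7 reference classes). Against sequence 1 to 5 kb inside the ends of genes over 10 kb, the combined ratio was 1.12 (1.02 to 1.24, unadjusted Mantel-Haenszel p 0.0234). By group it was 0.922, 1.01, 1.11 and 1.17 from the sparsest to the densest bins. The ratio to genes over 100 kb did differ, from 1.12 in the sparsest to 1.89 in the densest bins (adjusted p 0.0104).

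**Figure D4:**
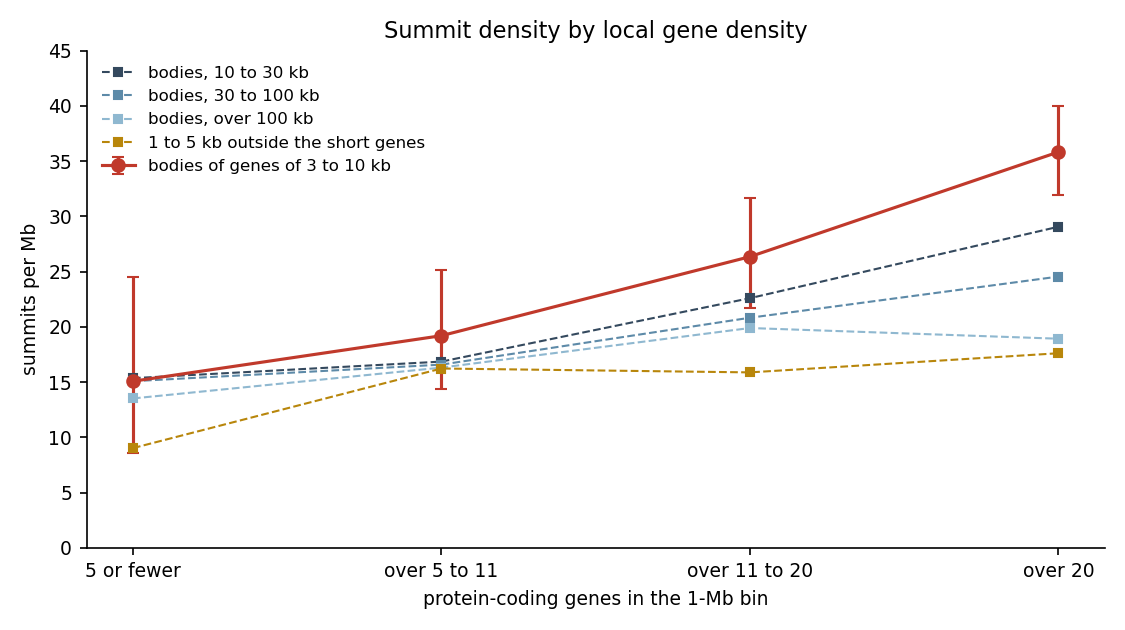
Summits per Mb (y axis) in 4 groups of 1-Mb bins ordered by their number of protein-coding genes (x axis), for bodies of short genes with 95% Poisson intervals, for bodies of 3 longer classes of genes and for the sequence 1 to 5 kb outside the short genes. The short genes rise from 15.1 to 35.8 per Mb, while genes over 100 kb go from 13.5 to 18.9.

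Every autosome had more summits per Mb in short bodies than in its other sequence (19 of 19). Short bodies exceeded the flanks on 18 autosomes, with chromosome 1 as the exception (22.7 against 26.8 per Mb). They exceeded genes of 10 to 30 kb on 15, and were lower on chromosomes 3, 5, 16 and 17. Chromosome 10 had the highest density, 54.4 per Mb from 39 members, and chromosome 3 the lowest, 15.8 from 11.

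Some gene-rich 1-Mb bins held several members, and these bins were also rich in other summits. The bin with most members was chromosome 11 from 120 to 121 Mb, with 13 in 10 short genes among 46 protein-coding genes. That bin held 107.9 kb of short gene bodies and 52 summits of any kind, where other autosomal sequence held 14.6 per Mb. It includes Pcyt2, Mafg, Gcgr, the glucagon receptor gene, and Notum, which encodes a secreted Wnt inhibitor. Chromosome 10 from 79 to 82 Mb held 7, 8 and 7 members in its 3 bins, in genes such as Grin3b, an NMDA receptor subunit gene, Mex3d and Tbxa2r, the thromboxane receptor gene. The 3 bins held 79.5, 83.3 and 56.2 kb of short gene bodies, and 31, 72 and 48 summits of any kind. Chromosome 7 from 128 to 129 Mb held 8 members in only 24.8 kb of short gene bodies, all in Armc5, Slc5a2, Tgfb1i1 and Trim72. It held 24 summits of any kind. A neighbouring summit of the list lay within 5 kb of 143 members (28.8%, 25 to 33.0), against 17.4% of all autosomal summits and 27.0% of those in genes of 10 to 30 kb.

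Most genes held a single member. There were 412 such genes, 33 genes with 2 and 7 with 3, and no gene held more. The 7 were Mex3d, Pcyt2, Zbtb48, Trim72, Dolpp1, Tgfb1i1 and Mbd6, and their peak intervals did not overlap. Pcyt2, which encodes an enzyme of phosphatidylethanolamine synthesis, had folds of 3.29, 2.42 and 2.59 at 120611603, 120611972 and 120615373 on chromosome 11. Its first summit had a q of 0.0208 and its second a q of 0.272.

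Dolpp1, a dolichyl pyrophosphate phosphatase gene of chromosome 2, had folds of 2.94, 2.10 and 3.29, the first in a peak of 624 bp. Tgfb1i1, which encodes a focal adhesion protein, had folds of 2.77, 2.42 and 3.29 on chromosome 7. Zbtb48, which encodes a telomere-binding zinc finger protein, had 2.42, 3.29 and 2.42. In each of these 4 genes only 1 of the 3 summits had a q of 0.05 or less.

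The remaining 3 had no summit of that q. The RNA-binding protein gene Mex3d had folds of 2.94, 2.94 and 2.42, within 1613 bp. Mbd6, a methyl-CpG-binding domain gene, had 2.76, 2.42 and 2.77, and Trim72, a muscle gene of membrane repair, had 2.43, 2.59 and 2.43. The densest genes with 2 members were Gtpbp6, Drd1 and Magel2. Drd1, the D1 dopamine receptor gene, had summits at 54053013 (fold 2.77, q 0.11) and 54054185 (fold 3.29, q 0.0208) on chromosome 13. Magel2, an imprinted gene of the region linked to Prader-Willi syndrome, had 3.11 and 2.77, and Gtpbp6 2.94 and 2.59. Summits in the same gene were a median of 1515 bp apart.

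In any list below, the share of genes with a member is set beside 10.5% of all 4324 short genes (452 genes), and with q of 0.05 or less beside 2.73%. Of the 4324 genes, 224 had no body outside longer genes and so could not hold a member, which leaves 4100. Genes of that kind were kept in the totals of the lists, and how many each list holds is not given here. A low share, or none, can thus in part reflect genes that could not hold a member. The share of a list also depends on the body length of its genes, which differs between lists. Of 13 immediate early genes of 3 to 10 kb, 1 held a member. It was Fosl1, an AP-1 subunit gene, with a fold of 2.59 and a q of 0.177. Fos, the founding AP-1 gene, had its strong peak (fold 49.6) 121 bp inside an end and therefore held no member. Egr2 had a summit 94 bp inside an end (fold 3.11) and Egr3 one 385 bp outside (3.29), and neither held a member. Arc, which encodes a postsynaptic capsid-like protein, and Egr1 had no summit within the gene or 1 kb of it. Npas4 (19.1 kb), Nr4a1 (20.9 kb) and Junb (1.84 kb) fall outside the length range. Npas4 had a summit 3330 bp inside an end (fold 3.28, q 0.0208), and Nr4a1 and Junb had none within the gene or 1 kb of it.

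Of 12 neuropeptide and late activity genes, Npy, for neuropeptide Y, and Penk, for proenkephalin, held 1 member each, both with a fold of 2.42 and a q of 0.272. Of 24 neuronal transcription factor genes only Dlx6 did (2.65, q 0.11), at a site also inside the antisense gene Dlx6os1. None of 16 synaptic and neuronal structural genes held one, which allows a share of up to 19.4% (95% Wilson interval). Of 10 short markers of glial, microglial and endothelial cells, 1 did, Tmem119, a microglial gene (2.43, q 0.213). None of 15 housekeeping genes, 12 tubulin genes, 19 Hox genes, 7 liver and muscle genes and 4 histone genes held a member. These lists are small, and their intervals all include 10.5%.

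In families of similar genes, where reads can be placed on more than one copy, single positions are uncertain. How alike the genes of each list below are was not tested. Solute carrier genes, which encode membrane transporters, held members in 13 of 47 genes, or 27.7% (16.9 to 41.8), with 6.98 summits per 100 kb of body against 2.95 over all short genes. Slc52a2, a riboflavin transporter gene, had the highest fold, 3.29 (q 0.0208), followed by 3.11 in Slc16a13, a monocarboxylate transporter family gene, and in Slc35a4 (both q 0.039). With q of 0.05 or less, 5 of the 47 held one. Zinc finger Zfp genes held members in 9 of 52 (17.3%, 9.38 to 29.7), led by Zfp319 (3.8), Zfp383 (3.46) and Zfp513 (3.11).

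Mitochondrial respiratory genes held members in 6 of 47 (12.8%, 5.98 to 25.2), among them Ndufs7 (3.11) and Ndufa11 (3.05) of complex I and Atp5d (2.94) of ATP synthase. Cytosolic ribosomal protein genes had 3 of 45 by symbol (6.67%), Rpl19 (3.98), Rps10 (2.59) and Rpl7l1 (2.42), the last of them a ribosomal protein-like gene. Keratin genes had 5 of 37 (13.5%), with Krt82 at 2.94, Krt5 at 2.77 and Krt17 at 2.59. Transmembrane Tmem genes had 7 of 74 (9.46%), with Tmem121 and Tmem214 at 3.46 and Tmem97, which held 2 members, at 3.29. Kallikrein, trypsin and serpin genes had 6 of 71 (8.45%), led by Serpina16 (3.11), and Serpina3m and Serpinb3b (both 2.77) have close paralogues. Per 100 kb of body, the respiratory genes had 2.79 summits, the ribosomal genes 2.43 and the keratin genes 2.93. The Tmem genes had 3.12 and the kallikrein, trypsin and serpin genes 2.27, against 2.95 over all short genes.

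Odorant receptor genes held members in 5 of 109 (4.59%, 1.98 to 10.3), with 1.32 summits per 100 kb, and none of the 5 had a q of 0.05 or less. Olfr1342 and Olfr1437 had a fold of 2.94 and Olfr145 one of 2.77. Vomeronasal and taste receptor genes had 1 of 22 (4.55%, 0.807 to 21.8), Vmn1r51 (3.14). Chemokine and interleukin genes had 1 of 32 (Cxcl16, 3.11) and cytochrome P450 genes 2 of 24 (Cyp2w1, 3.29, and Cyp4a14, 3.11). Sox, Fox and Pou genes had 2 of 29, the endodermal factors Sox17 (2.59) and Foxa2 (2.55). Heat shock genes had 2 of 16 (Dnajb2, 3.11, and Dnajc4, 2.27). Proteasome (Psmd6, 2.59), Wnt and Fgf (Wnt1, 2.77) and Gpr genes (Gpr65, 1.85) had 1 each, of 17, 12 and 18.

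**Figure D5:**
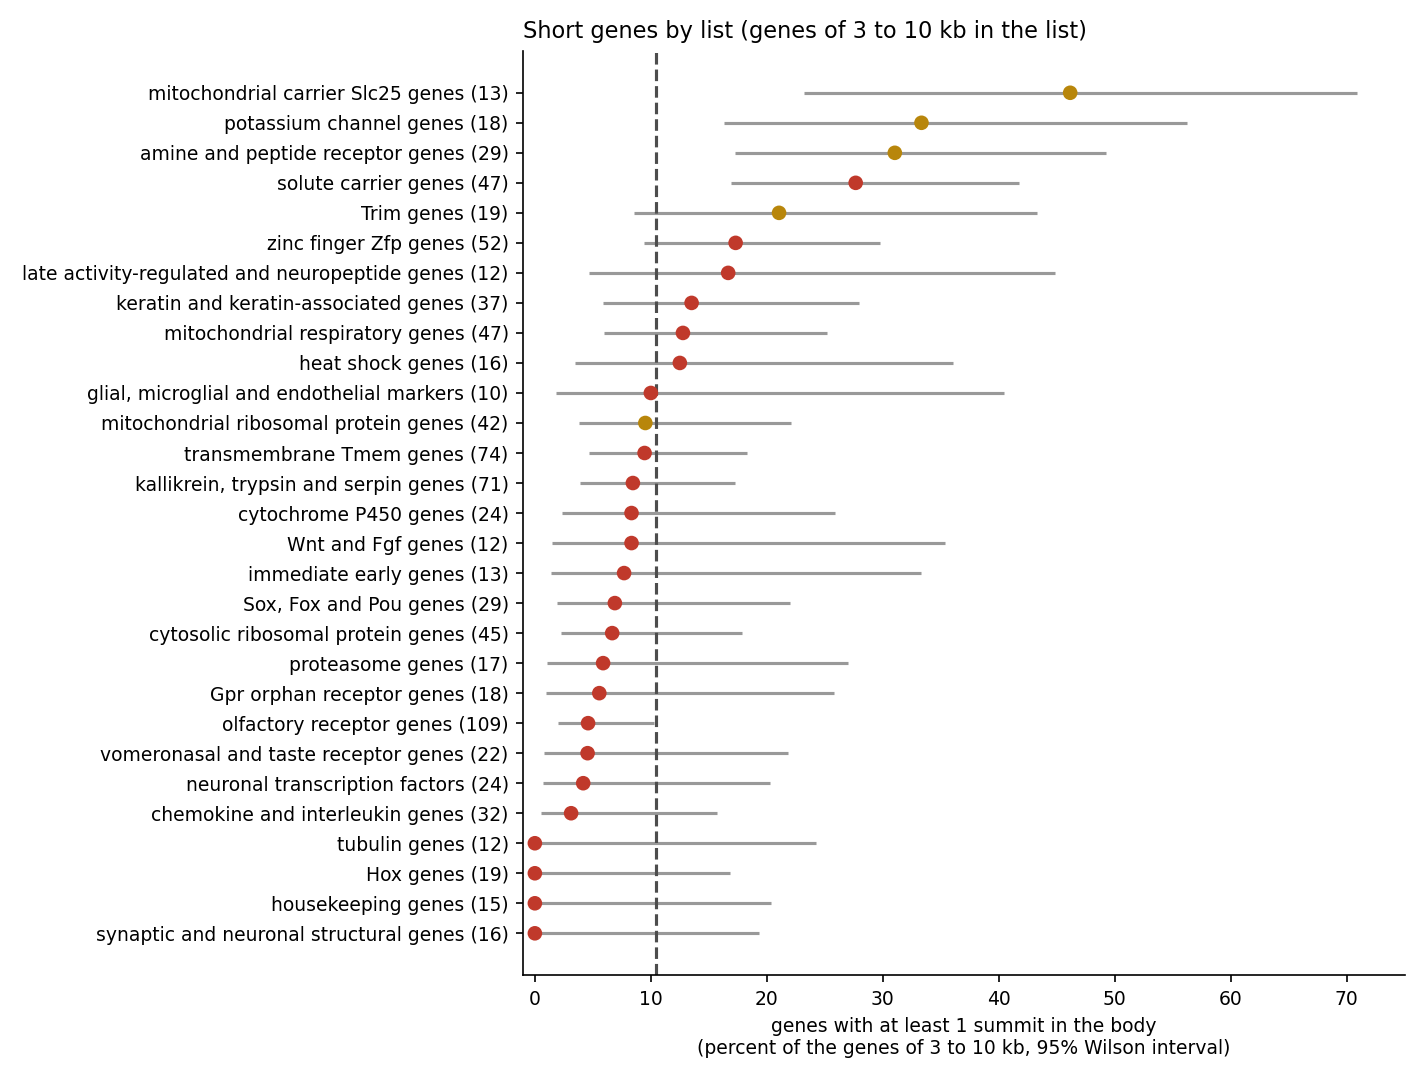
Percent of genes of 3 to 10 kb with at least 1 member (x axis, 95% Wilson intervals) for each list reported here with 10 or more such genes (number in brackets), with 10.5% for all short genes as a dashed line; lists in ochre were added after the members had been seen. Solute carrier genes stand at 27.7% and odorant receptor genes at 4.59%, and 4 lists are at 0.

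Further groups were counted after the members had been seen, so their counts are descriptions of what was noticed. Amine and peptide receptor genes held members in 9 of 29 (31.0%, 17.3 to 49.2). Beside Drd1 these were Kiss1r (3.11), Adrb3 (2.94), Htr1b and Mc1r (both 2.77), Aplnr (2.68), Hcrtr1, the orexin receptor gene, and Adra2c (both 2.59), and Gcgr (2.2). Drd1 and Kiss1r were the only 2 with a q of 0.05 or less. Potassium channel genes held members in 6 of 18 (33.3%, 16.3 to 56.3), Kcnk16, Kcnk4, Kcnj9, Kcnab3, Kcnf1 and Kcnk7, with folds of 2.42 to 2.76 and none at that q. Mitochondrial carriers of the Slc25 family, which are also in the solute carrier list, had 6 of 13 (46.2%, 23.2 to 70.9), with Slc25a39 (3.04) the only one at that q. Trim genes had 4 of 19 and mitochondrial ribosomal protein genes 4 of 42.

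The widest members ran from 563 to 660 bp. The widest, 660 bp, lay in Fam83e on chromosome 7 (fold 2.94), followed by the Dolpp1 peak of 624 bp and those in Ccdc106 (598 bp), Olfr1342 (569 bp) and Spc24 (563 bp), which encodes a kinetochore protein. Their folds of 2.94 to 3.29 were within the range of narrower members.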

How the data were processed

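TOP2B ChIP and input DNA were sequenced from etoposide-treated cortical neurons, and 1 pooled peak list was used. Per the submitters' processing notes, the tools were FastQC, Trimmomatic, BWA, SAMtools and MACS2, with no version, and the builds mm10 and GRCm38.p6. Caller settings, duplicate handling and pooling were not given in the sources used here. The list has no header. By its column order the authors deposited a linear fold enrichment, −log10 p and −log10 q per peak, and a display score that was not used. The fold was taken as the ratio of ChIP to control with a small constant added to both. Positions in bp were deposited by the authors and are given 1-based. Depth per library is unknown.

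Genes came from the RefSeq table of GRCm38.p6. Pileup and control were recovered from fold and p (within 0.002 of −log10 p) for 35305 of 35315 autosomal peaks and all members. Densities were counted with Python 3.11.15 and SciPy 1.17.1, and the counting was tested on simulated summits. These were placed at random and independently, while real summits cluster, so the simulation checks the counting and not the intervals. Where 2 short genes share a member (3 cases), it was counted for both genes and once as a summit.

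Named genes were those with the 10 highest folds (12 with ties), the 10 with most members, up to 3 per list by fold, those of the 5 widest and the 5 lowest-q members, and 8 early genes given in any case. Genes of the bins, the lists added later, the promoter windows and the overlaps with noncoding genes were named after their values were seen. The members and lists were chosen with earlier results of these data known. The result of 1 further gene list is not reported here.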

Additional observations from a re-analysis of the deposited data

How the results depend on the processing

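The 7 density ratios were recomputed with only peaks of q 0.05 or less or of fold at or above the median, merged entries, other margins and gene lengths, sequence in longer genes kept, 1 kb around every gene end left out, overlap of 1 bp, high control levels left out, genes with a summit per Mb in place of summits (for the 3 classes of longer genes only), each autosome left out, and, chosen after seeing the data, within groups of gene density and, for one ratio, within steps of distance from the end. Of 224 recomputed values (the density ratios and the members' median fold, median width and share with q of 0.05 or less), 221 kept their direction and side of the threshold or moved by less than their spread. Many of these values had little room to move. Merging entries changed none of the 7 ratios, leaving out high control levels removed no member, and leaving out an autosome kept most of the peaks. With genes of 3 to 5 kb alone (80 members), the ratio to genes of 10 to 30 kb was 1.22 (exact p 0.0795) and that to sequence 1 to 5 kb inside genes over 10 kb was 1.22 (exact p 0.0798). With q of 0.05 or less, the ratio to the end windows was 0.943, and it was past the threshold in neither case. Within groups of gene density the ratios to genes of 30 to 100 kb, to genes over 100 kb and to all other autosomal sequence were 1.35, 1.55 and 1.58, and that to sequence 1 to 5 kb inside genes over 10 kb was 1.12 (Mantel-Haenszel p 0.0234). With each autosome left out in turn, the ratio to genes of 10 to 30 kb ran from 1.23 to 1.31 and that to the flanks from 1.78 to 1.91. Counting genes raised the ratio to genes of 30 to 100 kb to 2.42 and that to genes over 100 kb to 7.39, since a long gene with many summits then counts once.

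With q of 0.05 or less, 121 members in 118 genes were left, and no member was left in these lists that had held one: immediate early, neuropeptide, neuronal transcription factor, glial, odorant receptor, keratin, proteasome, Sox, Fox and Pou, Wnt and Fgf, Gpr, potassium channel and mitochondrial ribosomal protein genes. No paired analysis was possible because the list is pooled over libraries. Runs of unknown or unmappable bases could not be left out of the lengths, and how far they or base composition move with the densities was not tested.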

Other observations

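Short genes of chromosome X, which the rule leaves out, held 2 summits by the same criteria, in 202 protein-coding genes of 3 to 10 kb and among 190 peaks on that chromosome. Their median fold was 2.47.

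Noncoding genes overlapped few members. A summit also lay inside a listed gene of another type in 25 of 496 cases (5.04%, 95% Wilson interval 3.44 to 7.33), and such genes covered 4.90% of the short gene bodies. Of these, 23 were long noncoding RNA genes, and no member lay in a microRNA or snoRNA gene. Glyctk, with both of its members inside D030055H07Rik, and Magel2, with both inside Gm32061, were the genes with 2 such summits. Ppp1r1b and Htr1b are examples picked after the members had been seen. Ppp1r1b, which encodes the dopamine-regulated phosphatase inhibitor DARPP-32, had a member of fold 2.94 inside 1700003D09Rik. Htr1b, a serotonin receptor gene, had one of 2.77 inside D430036J16Rik.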
